A study of Mus musculus with 4 samples.

Results

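The guanylate-binding proteins (Gbp genes) and immunity-related GTPases (Irg genes) were examined in LSK cells of mouse bone marrow, before and after a dose of 5-fluorouracil (5FU). The 10 genes listed were Gbp2, Gbp3, Gbp4, Gbp6, Gbp7, Gbp9, Igtp, Irgm1, Irgm2 and Iigp1, matched by the gene symbol of the array platform and chosen by their 5FU differences in these arrays. Each was read from the probe set that names it alone, with the highest mean over the arrays where there were several, and each had no more than 1. Of the 10, 9 had such a probe set, out of 22180 genes measured that way. Gbp2 had none, since its probe set also names Gbp2b.

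LSK cells are lineage-negative, Sca-1-positive and c-Kit-positive marrow cells, a mixture of hematopoietic stem cells and multipotent progenitors, and they came from bone marrow of C57/B6 males 4 months old. The 4 groups were Ctrl at day 0 (basal), AMKO at day 0, Ctrl at day 8 after 150 mg/kg of 5FU and AMKO at day 8 after the same dose, with 1 Affymetrix array each. The labels explain neither AMKO nor the genotype of Ctrl, so both are used as names of genotypes, and the labels could not be checked against a targeted gene. How many mice gave each array is not given in the sources used here. With 1 array per group no value below has a replicate error and no comparison has a test. Because the choice used these values, the differences of the genes are a description.

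Both families are large GTPases that cells make in response to interferon-gamma and, for many members, type I interferon. Gbp proteins gather on the membranes of vacuoles and bacteria inside cells. Irg proteins fall into effectors such as Iigp1 and regulators (Irgm1, Irgm2 and Igtp) that hold the effectors in an inactive state on the cell's own membranes. Irgm1 is known in blood formation because stem cells of mice that lack it respond to interferon-gamma with excessive division.

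Interferon response factors bind a repeat of GAAA. Promoter sequences from RefSeq (build GRCm38.p6), reaching from 250 bases before to 50 after a gene's start, matched 6 of the 10 genes; Gbp4, Gbp6, Gbp9 and Iigp1 had none. All 6 held the repeat GAAA, any 2 bases, GAAA on one strand or the other, against 3.99% of 27025 genes with a promoter of that length. Of 9 other Gbp and Irg genes with a promoter, 6 held it. The stretches around the matches are shown because the letters are shared by genes of 3 neighbourhoods; capitals mark each match, and the sequences are 5′ to 3′ on the gene's strand.
Gbp7, chr3:142530253-142530322, + strand: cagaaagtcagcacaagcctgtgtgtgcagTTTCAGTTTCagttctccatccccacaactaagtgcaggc
Gbp3, chr3:142559969-142560043, + strand: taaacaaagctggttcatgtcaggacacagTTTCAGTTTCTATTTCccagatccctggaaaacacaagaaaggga
Gbp2, chr3:142620574-142620643, + strand: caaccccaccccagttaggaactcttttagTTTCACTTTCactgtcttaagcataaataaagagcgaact
Irgm1, chr11:48871421-48871480, − strand: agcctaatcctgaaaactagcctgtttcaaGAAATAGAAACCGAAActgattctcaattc
Igtp, chr11:58199492-58199555, + strand: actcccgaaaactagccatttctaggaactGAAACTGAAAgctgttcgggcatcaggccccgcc
Irgm2, chr11:58214883-58214952, + strand: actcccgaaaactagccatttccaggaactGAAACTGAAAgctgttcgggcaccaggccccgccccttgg

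The 3 Gbp genes carried the repeat as its reverse complement and the 3 Irg genes in the given one. Gbp3 and Irgm1 each held 2 overlapping matches. Gbp3 also has a second start, whose window held no match. The Igtp and Irgm2 promoters were 73.5% identical over a global alignment, against 54.2% for Igtp and Irgm1. A second pattern searched, TTC, any 3 bases, GAA, is not marked above. It was held by 3 of the 6 genes and by 4 of 9 other Gbp and Irg genes, against 9.55% of all genes with a promoter. These are matches of letters and no binding was measured.

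The arrays differed in ways beyond the groups, read from fixed marker lists whose levels were summed on the linear scale. All 12 neutrophil genes were at least 2-fold higher at day 8 in Ctrl and 2 in AMKO, against 5.02% and 4.69% of all genes. Camp, Ltf, Retnlg, Mmp8, Mmp9 and Ly6g reached the floor of 5.475, the median of all values, only in Ctrl at day 8. Their Ctrl calls thus follow from the filter. S100a8, among the AMKO calls, went from 4.27 to 5.48, close to the floor. The neutrophil sums were 464 to 582 in 3 arrays and 23792 in Ctrl at day 8. In that array the sums of granulocyte-monocyte progenitor genes (6 of 6 measured), monocyte and macrophage genes (11 of 12), B-lineage genes (9 of 10) and erythroid genes (4 of 8) were also above those of the other arrays, at 10.4, 3.75, 9.18 and 2.28 times their Ctrl basal sums. Xist, a transcript of the inactive X chromosome, was at 7.65 there and at 3.97 to 4.41 in the others, although all mice are labelled male. The Ctrl basal array held skeletal muscle genes, with a sum of 3494 over 8 genes against 428 to 652 elsewhere. Results in Ctrl rest on these arrays, so the AMKO pair is given beside each. Of the 12 LSK and stem cell markers, 10 were measured, and their sums lay between 9311 and 12496. Single genes differed more. Cd48 went from 4.99 to 9.96 in Ctrl and from 5.15 to 9.49 in AMKO, with both basal values under the floor. Flt3 was 2.97-fold and 1.43-fold higher, and Procr 3.12-fold and 1.62-fold lower. Kit was 1.69-fold and 1.64-fold lower, at 11.08 or above in every array. At least 2-fold higher were 3 in Ctrl and 1 in AMKO, and 2 and 0 were lower, against 4.46% and 3.55% of all genes. Ly6a, which encodes Sca-1, had no probe set of its own. Dendritic cell sums (7 of 8 genes) were 1601 to 2243. Megakaryocyte sums (5 of 7) were lower at day 8 in both genotypes, at 2265 and 2368 against 4134 and 4755, and endothelial sums (6 of 6) were 1508 and 1701 against 2265 and 1913.

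**Figure D1:**
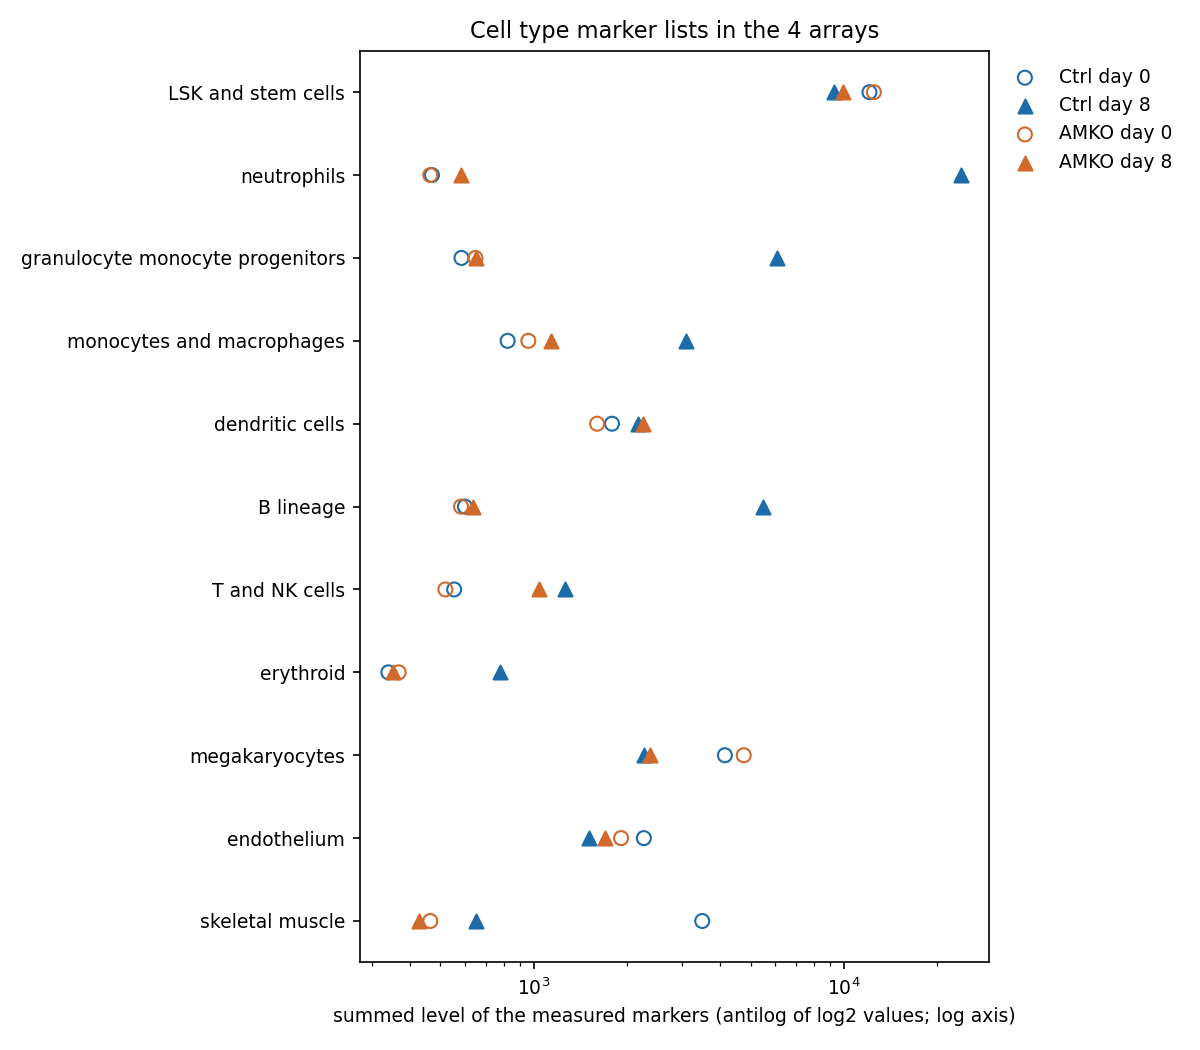
Summed level of each marker list (horizontal log axis, antilog of the deposited log2 values, without unit) in each of the 4 arrays; open circles are day 0, triangles day 8, blue Ctrl and orange AMKO. The Ctrl day 8 array stands to the right for neutrophil genes (23792), and the Ctrl basal array for skeletal muscle genes (3494).

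After 5FU the GTPase genes were mostly lower, and the sizes of the differences ranged from near 0 to almost 4-fold. Gbp4 and Gbp9 had the lowest mean difference over the genotypes, Iigp1 was more than 2-fold lower in Ctrl alone, and Gbp3, Gbp7 and the 3 regulators Igtp, Irgm1 and Irgm2 differed by less than 1.5-fold. In RNA of a sorted population, fewer cells that express a gene and less RNA per cell cannot be told apart. Values below are log2 levels of a probe set unless a difference or fold is named, and levels are not compared between genes.

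Gbp4, a guanylate-binding protein, was at 7.54 in Ctrl and 7.44 in AMKO at basal, and at 6.17 and 5.47 at day 8. Both day 8 arrays lay below both basal arrays, and the AMKO day 8 value was just under the floor of 5.475, the median of all values, below which the size of a difference is uncertain. From basal to day 8 the level was lower by 2.58-fold in Ctrl and by 3.92-fold in AMKO. Of the 14061 genes at or above the floor in at least 1 array, 2.2% in Ctrl and 0.448% in AMKO had a 5FU difference as low or lower. Gbp4 was the only measured member with a lower level in AMKO than in Ctrl at day 8.

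Gbp9, a neighbour of Gbp4 in the genome, was at 7.18 in Ctrl and 7.13 in AMKO at basal, and at 5.85 and 6.33 at day 8. Both genotypes were lower at day 8, by 2.51-fold in Ctrl and 1.74-fold in AMKO. Differences as low were found for 2.37% of genes in Ctrl and 5.95% in AMKO. Gbp6, which lies in the same neighbourhood, was between 3.37 and 3.74 in all 4 arrays, under the floor throughout, so its differences are not read.

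Gbp7 and Gbp3, guanylate-binding proteins found at parasite vacuoles in infected cells, lie next to each other in a separate neighbourhood. Gbp7 was at 9.27 and 9.28 at basal in Ctrl and AMKO, and at 8.87 and 8.96 at day 8. Gbp3 was at 6.91 and 6.81, and then at 6.59 and 6.73. Both genes were lowest in the Ctrl day 8 array, with folds of 1.32 and 1.25 in Ctrl and of 1.25 and 1.06 in AMKO for Gbp7 and Gbp3. In Ctrl, 19.1% and 23.3% of all genes were as low as Gbp7 and Gbp3, so neither stood at the edge of the distribution. Median centring moved the AMKO 5FU differences up by 0.11 and turned that of Gbp3 from -0.08 to 0.03.

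Gbp2, whose promoter is shown above, could be read only together with Gbp2b. Their shared probe set was at 7.96 in Ctrl and 7.50 in AMKO at basal, and at 7.39 in each at day 8. The day 8 level was lower by 1.48-fold in Ctrl and by 1.08-fold in AMKO. Gbp2b, which also has a probe set of its own, was at 6.0 in Ctrl at basal and at 5.24 to 5.37 in the AMKO arrays, with 4.63 in Ctrl at day 8, so only 1 array was above the floor.

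Iigp1, the best-studied Irg effector, had the widest gap among the measured members between its Ctrl and AMKO 5FU differences. It was at 8.57 in Ctrl and 8.21 in AMKO at basal, and at 7.47 and 8.07 at day 8. The Ctrl day 8 array was the low one, and the AMKO arrays lay 0.14 apart. The fold was 2.14 lower in Ctrl and 1.10 lower in AMKO, and 3.65% and 35.3% of genes had differences as low. Because the low array is the one with raised neutrophil and B-lineage sums, those values stand beside this difference, and their part in it was not tested.

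The 3 regulators had similar 5FU differences in Ctrl, from -0.58 to -0.50. Irgm2 was at 8.38 at basal and 7.80 at day 8 in Ctrl, and at 8.76 and 8.42 in AMKO, so both AMKO arrays lay above the Ctrl arrays. Irgm1 was at 7.72 and 7.17 in Ctrl, and at 7.58 and 7.38 in AMKO. Igtp was at 7.92 and 7.42 in Ctrl, and at 7.71 and 7.91 in AMKO. Igtp was thus the only measured member with a higher value at day 8 in AMKO, by 0.20, while it was lower by 1.41-fold in Ctrl. The Ctrl folds were 1.49 lower for Irgm2 and 1.46 lower for Irgm1, and the AMKO folds 1.27 and 1.15 lower. Between 12.2% and 14.8% of genes were as low as these 3 in Ctrl, and between 21.2% and 64.2% in AMKO.

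**Figure D2:**
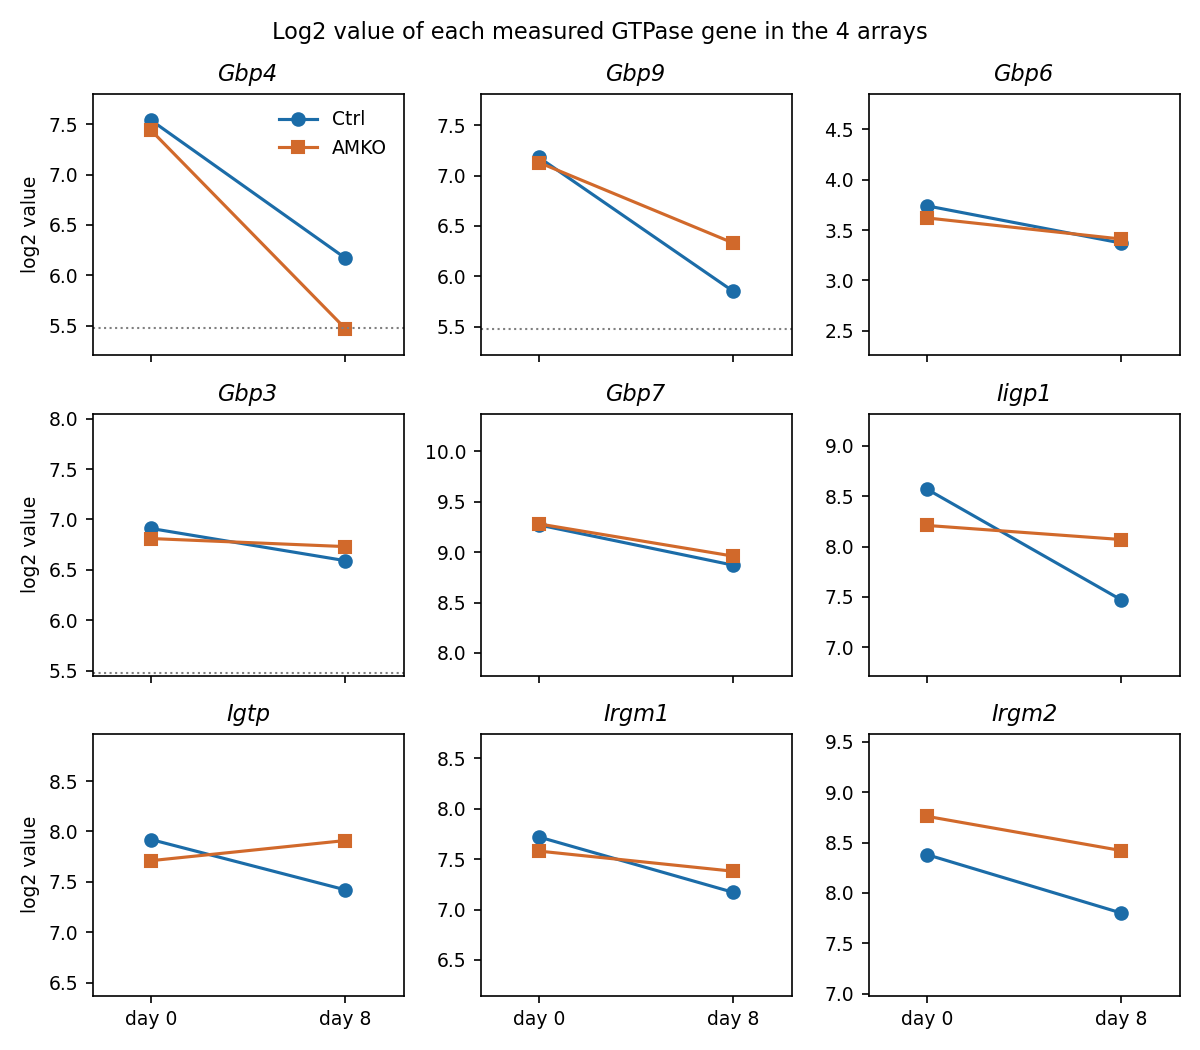
Log2 value (vertical axis) of the 9 measured genes at day 0 and day 8 after 5FU; each point is 1 array, blue circles Ctrl and orange squares AMKO, every panel spans the same range of log2 units, and the dotted line is the floor of 5.475. Gbp4 and Gbp9 are lower at day 8 in both genotypes, Iigp1 is lower mainly in Ctrl (8.57 to 7.47), and Gbp6 is below the floor in all arrays.

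Of the 9 measured genes, 8 were at or above the floor in at least 1 array. Of these 8, 3 in Ctrl (Gbp4, Gbp9 and Iigp1) and 1 in AMKO (Gbp4) were at least 2-fold lower after 5FU, where the same held for 4.46% of all genes in Ctrl and 3.55% in AMKO. None was at least 2-fold higher, against 5.02% and 4.69% of all genes. All 8 were lower by some amount in Ctrl and 7 in AMKO, against 48.9% and 46.8% of all genes, and 0 and 1 were higher, against 50.1% and 52.3%. In both genotypes at once, 1 (Gbp4) was at least 2-fold lower, against 1.98% of all genes, and 7 were lower by some amount, against 33.7%. Their median difference was -0.565 in Ctrl and -0.26 in AMKO, and the median of all genes was 0.01 and 0.03. The rule rests on this contrast, so nothing is read from these shares. With the AMKO day 8 array in place of the Ctrl day 8 array, the Ctrl count was 1 in place of 3, and with the AMKO basal array in place of the Ctrl basal array it was 2 (Gbp4 and Gbp9), with Iigp1 at -0.74.

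The genotypes were then compared at each time; these comparisons use the same 4 arrays as the 5FU differences and are not independent of them. At basal the 8 genes differed by -0.36 (Iigp1) to 0.38 (Irgm2), with a median of -0.10 and none at least 2-fold apart, against 0.697% of all genes lower and 0.228% higher in AMKO. None reached 1.5-fold at basal, against 3.63% of genes lower and 2.51% higher; 6 were lower by some amount and 2 higher, against 49.0% and 49.4%. At day 8 they ranged from -0.70 (Gbp4) to 0.62 (Irgm2), with a median of 0.345 beside 0.06 for all genes. None was at least 2-fold apart at day 8 either, against 2.63% of genes lower and 0.74% higher. At 1.5-fold, Irgm2 and Iigp1 were higher in AMKO, by 1.54-fold and 1.52-fold, and Gbp4 was lower by 1.62-fold, where 4.15% of all genes were higher and 5.33% lower. At day 8, 7 of the 8 were higher in AMKO by some amount, against 59.0% of all genes, and 1 was lower, against 39.5%. The AMKO 5FU difference was above the Ctrl one for 7 of the 8, against 55.2% of all genes. The gap was widest for Iigp1 (0.96) and Igtp (0.70), where 97.1% and 93.5% of genes had the same or a lower gap, and it was -0.60 for Gbp4.

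The rest of both families gave a wider spread. Of 16 further genes listed, 11 had a probe set of their own and 9 were at or above the floor. In Ctrl 5 of the 9 were at least 2-fold lower after 5FU (Gbp8, Gbp2b, Gm4951, F830016B08Rik and Gm12185), beside 4.46% of all genes, and in AMKO 1 was lower (Gbp8) and 1 higher (9930111J21Rik2), beside 3.55% and 4.69%. Gbp2b reached the floor only in the Ctrl basal array, so its lower value in Ctrl follows from the filter, and F830016B08Rik (4.97) and Gm12185 (5.29) were under the floor in Ctrl at day 8, so the sizes of their Ctrl differences are uncertain. Gbp8 was at 7.82 and 7.27 at basal in Ctrl and AMKO, and at 5.85 and 6.01 at day 8, which is lower by 3.92-fold and by 2.39-fold. F830016B08Rik was at 7.32 in Ctrl and 6.20 in AMKO at basal and at 4.97 and 6.0 at day 8, so that it was lower by 5.1-fold in Ctrl and by 1.15-fold in AMKO. Gm12185 was 2.03-fold and 1.85-fold lower. In the opposite direction, 9930111J21Rik2 was 1.96-fold higher in Ctrl and 2.23-fold higher in AMKO.

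Seen by genomic neighbourhood, the Gbp4 and Gbp9 cluster, of 5 adjoining Gbp genes, was lower after 5FU in both genotypes. Its 4 genes above the floor (Gbp4, Gbp8, Gbp9 and Gbp10) had 5FU differences of -1.97 to -0.98 in Ctrl and -1.97 to -0.54 in AMKO. The Gbp3 and Gbp7 cluster, with Gbp5 and Gbp2b, ranged from -1.37 to -0.32 in Ctrl and from -0.32 to 0.08 in AMKO. Its lowest Ctrl value is that of Gbp2b, which follows from the filter. Within this cluster Gbp5, a guanylate-binding protein linked to inflammasome activation, was at 7.68 and 7.48 at basal and at 6.77 and 7.56 at day 8. In the Iigp1 cluster (Iigp1, Gm4951 and F830016B08Rik), all 3 genes were at least 2-fold lower in Ctrl, with -2.35 to -1.10, and none in AMKO, with -0.20 to 0.45; the lowest Ctrl value, that of F830016B08Rik, is the one whose size is uncertain. Gm4951 and F830016B08Rik were already lower in AMKO at basal, by 2.39-fold and 2.17-fold, where 0.697% of all genes were at least 2-fold lower. This was not particular to the Iigp1 cluster, since 9930111J21Rik2 of the Irgm1 cluster was 2.11-fold lower in AMKO at basal. These were the 3 genes at least 2-fold lower in that comparison among the 9 further family genes above the floor. The median of the 9 was -0.63, with 7 lower and 2 higher by some amount. Neighbours did not always differ in the same direction. The Igtp and Irgm2 pair had -0.58 to -0.50 in Ctrl and -0.34 to 0.20 in AMKO. The Irgm1 cluster, with Gm12185 and 9930111J21Rik2, ranged from -1.02 to 0.97 in Ctrl and from -0.89 to 1.16 in AMKO. Gm12185 was its lowest gene and 9930111J21Rik2 its highest in both genotypes. Neighbouring genes of these families are similar in sequence, and whether their probe sets share signal was not tested. The division into neighbourhoods was made after the values were seen.

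**Figure D3:**
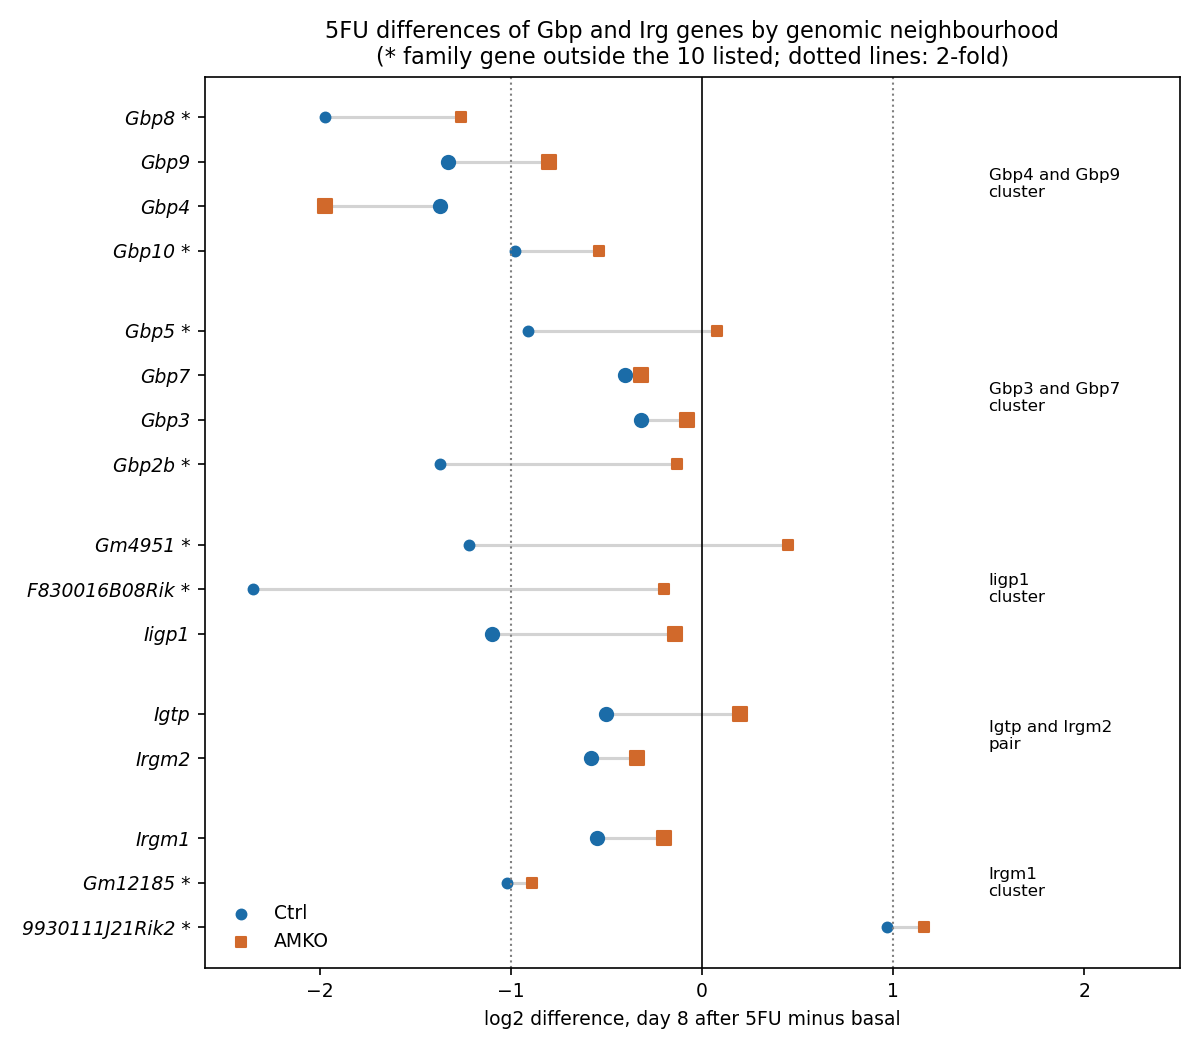
Log2 difference between day 8 after 5FU and basal (horizontal axis) for the 16 Gbp and Irg genes in the 5 neighbourhoods that were above the floor; blue circles are Ctrl, orange squares AMKO, a grey line joins them, large points are listed genes and asterisks mark the others. Genes of the Gbp4 and Gbp9 cluster lie left of 0 in both genotypes, while those of the Iigp1 cluster lie left of the 2-fold line in Ctrl (-2.35 to -1.10) and near 0 in AMKO (-0.20 to 0.45). The Irgm1 cluster has genes on both sides of 0 (-1.02 to 0.97 in Ctrl and -0.89 to 1.16 in AMKO).

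The signalling genes of the pathway that induces these GTPases had median 5FU differences near 0. Beside each count below stand the shares of all genes at least 2-fold lower (4.46% in Ctrl and 3.55% in AMKO) and higher (5.02% and 4.69%), and in lists of this size a single called gene is not read as a result about the list. Ifng, which encodes interferon-gamma, was under the floor in every array, at 4.42 to 4.52. Of 11 measured markers of T and NK cells, which are the main producers of interferon-gamma, 6 were under the floor in all arrays (Cd3e, Cd4, Cd8a, Ncr1, Gzma and Klrk1); their sums in Ctrl and AMKO were 554 and 519 at basal, then 1264 and 1040 at day 8. Nkg7, a granule protein of that list, was at 8.01 and 7.82 at basal and 9.87 and 9.59 at day 8. It had the highest value of the list in every array, so the sums of the 11 genes largely follow it. Of the other genes of the list, only Cd3g in Ctrl was at least 2-fold higher, and it reached the floor only in that day 8 array. Of 15 interferon-gamma signalling genes 13 were above the floor, with medians of -0.01 in Ctrl and -0.04 in AMKO, 2 (Irf8 and Ifngr2) at least 2-fold higher in Ctrl and none in AMKO, and none at least 2-fold lower in either.

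Among the receptors, Ifngr1 was higher at day 8 by 0.36 in Ctrl and 0.74 in AMKO, and Ifngr2 by 1.14 and 0.89. The receptor kinases Jak1 (-0.16 and -0.47) and Jak2 (-0.01 and 0.10) and the inhibitor Socs1 (-0.14 and -0.23) differed by less than 1.5-fold. Ptpn2, a phosphatase that dampens interferon signals, was higher by 0.69 and 0.37. Irf1, a transcription factor that activates Gbp genes, was at 7.55 in Ctrl and 7.46 in AMKO at basal, and at 6.74 and 7.37 at day 8, so the Ctrl day 8 array was the low one. Irf9 differed by -0.03 and -0.23. Irf8, a factor of monocyte, dendritic and B cells, went the other way in Ctrl, from 5.38 to 8.46, and from 5.72 to 6.29 in AMKO. Its Ctrl basal value lay under the floor, so the size of that difference is uncertain. B-lineage sums rose from 600 to 5505 across the Ctrl pair, with 583 then 635 for AMKO. Monocyte and macrophage sums rose from 824 to 3088 across the Ctrl pair, with 961 then 1134 for AMKO. Dendritic cell sums rose across both pairs, from 1788 to 2175 for Ctrl and from 1601 to 2243 for AMKO. What part such cells have in the Irf8 differences was not tested.

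Other interferon-induced genes had 5FU differences in both directions. Of 19 type I interferon-induced genes above the floor, 1 in each genotype (Oas2, an activator of RNase L, by 1.76 and 1.40) was at least 2-fold higher and none at least 2-fold lower, with medians of -0.04 and 0.25. In Ctrl 11 of the 19 were lower by some amount and 8 higher, and in AMKO 6 and 13. Ifit1 (-0.45 and -0.38) and Ifit3 (-0.43 and -0.40) were lower in both genotypes, and Oasl2 (-0.60 and 0.12) and Zbp1 (-0.50 and -0.02) were lower mainly in Ctrl, which are sizes also seen among the members. Ifit2 was higher by 0.74 and 0.86, Isg15, a ubiquitin-like modifier, by 0.53 and 0.73, and Rtp4 by 0.45 and 0.46. The 7 genes of type I interferon signalling had medians of -0.12 and 0.14, with Irf7 higher by 0.86 and 0.67, Irf3 lower in both with -0.56 and -0.56, Stat2 with -0.44 and -0.51, and Usp18 at 0.00 and 1.03. Of 14 MHC class I presentation genes, 1 in Ctrl was at least 2-fold lower and the medians were 0.04 and 0.325. That gene was Nlrc5, the activator of MHC class I transcription, which was at 8.94 in both genotypes at basal and at 7.74 and 8.03 at day 8. The immunoproteasome genes Psmb9 (0.49 and 0.67), Psmb8 (0.28 and 0.51) and the proteasome activator Psme2 (0.41 and 0.39) were higher in both. The 6 MHC class II presentation genes had medians of -0.10 and -0.43, and 1 (H2-Aa, in AMKO) was at least 2-fold lower, with H2-Aa at -0.60 and -1.20, H2-Eb1 at -0.14 and -0.66, H2-DMb1 at -0.26 and -0.72, and H2-DMa at 0.06 and 0.65.

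Genes whose products act on or with the GTPases were near 0 at the median in Ctrl. The LC3 conjugation system guides Gbp and Irg proteins to vacuoles. Its list of 13 genes, which also holds Sqstm1, Traf6 and Trim21 from outside the conjugation steps, had medians of -0.02 and 0.03. In each genotype 1 was at least 2-fold higher. Atg5 was higher by 1.12 and 0.58, Atg3 by 0.62 and 1.06 and Gabarapl2 by 0.31 and 0.68, while Trim21 was at -0.54 and -0.25. The 5 prenylation genes encode enzymes that attach the lipid anchor of some Gbp proteins or, for Rce1 and Icmt, act after it is attached. They had medians of -0.01 and 0.43, and none was at least 2-fold different. Rce1 was at 0.36 and 0.90, Fnta at -0.07 and 0.74, Fntb at -0.09 and 0.43 and Pggt1b at -0.01 and 0.25. The 8 inflammasome genes, which act downstream of Gbp proteins during infection, had medians of 0.045 and -0.055, with 1 (Il1b, in Ctrl) at least 2-fold higher and none lower; Il1b reached the floor only in the Ctrl day 8 array, so that call follows from the filter. Il1b had differences of 2.87 and 0.33 and Nlrp3 of 0.85 and -0.12. Nlrp3 also reached the floor only in the Ctrl day 8 array (5.75), so its higher value there follows from the filter too. Both genes are expressed by neutrophils and monocytes, whose sums were high in that array, and the part of those cells in the differences was not tested. Pycard, the inflammasome adaptor, was at 0.33 and 0.47, and Il18 at -0.60 and -0.11.

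**Figure D4:**
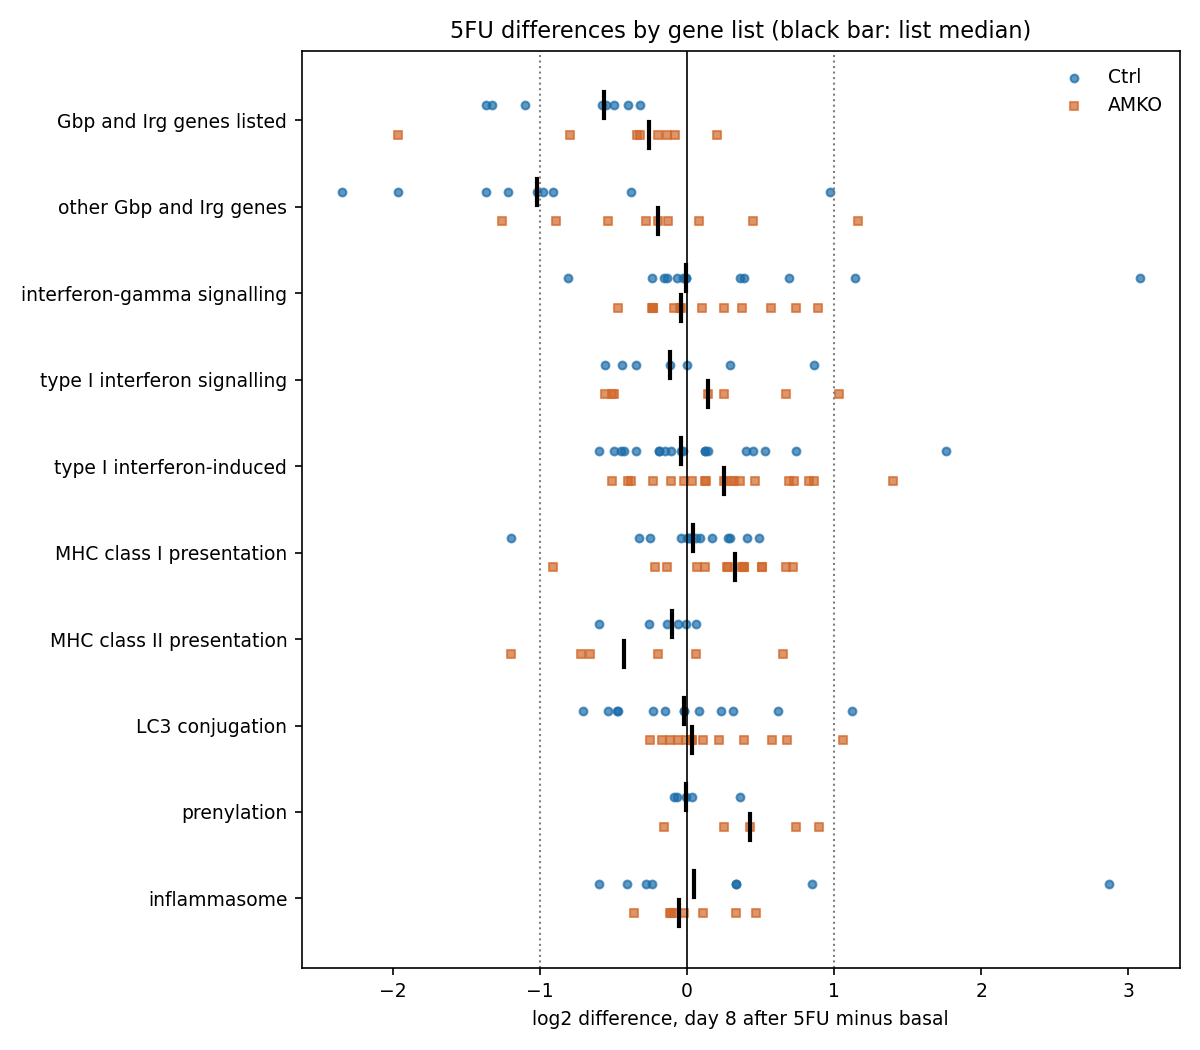
Log2 difference between day 8 after 5FU and basal (horizontal axis) for every gene above the floor in 10 lists; each point is 1 gene, blue circles Ctrl and orange squares AMKO, black bars are list medians and dotted lines mark 2-fold. The listed Gbp and Irg genes have medians of -0.565 and -0.26, while the signalling lists have medians between -0.12 and 0.14.

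Genes with the most similar profile were found by the root mean square distance, over the 4 arrays, between a gene's mean-centred log2 values and the median profile of the 8 members above the floor. Left out were the members and genes with Gm-number or Rik symbols, among them the Irg genes Gm4951, Gm12185, F830016B08Rik and 9930111J21Rik2. The 8 nearest of the rest were Ccdc69, Tslp, Ralgds, Smad3, Alpk3, Tspan18, AI837181 and Wfdc5, at distances of 0.01 to 0.027. Tslp (5.43), Tspan18 (5.23) and Wfdc5 (5.23) were under the floor in Ctrl at day 8, so the sizes of their Ctrl differences are uncertain. Ccdc69 was at 8.50 and 7.90 in Ctrl and at 8.45 and 8.22 in AMKO at basal and day 8, and Smad3, a transducer of TGF-beta signals, at 7.56 and 6.93 and at 7.54 and 7.28. None of the 8 belongs to either family, though the members and those Irg genes could not appear. The members themselves lay between 0.06 (Irgm1) and 0.727 (Gbp4) from the profile, so Irgm1 followed it most closely and Gbp4 least.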

How the data were processed

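The authors' deposited table holds 1 log2 value per probe set and array; the log base was read from its range, 1.99 to 13.43. No source used here gives the background correction, normalization or summarization, and the values were used without further scaling. Per the labels' protocols, RNA was taken with the RNeasy Micro kit and biotin-labelled by the Affymetrix procedure. Of 34472 probe sets, 23521 name 1 gene, 1814 several and 9137 none. Of those that name 1 gene, 23328 had an Entrez identifier found in a RefSeq table (GRCm38.p6), whose symbol was used whether or not it differed. That table also gave the order of neighbouring genes. A gene had to reach 5.475, the median of all values, in at least 1 array. Differences of 1 array from 1 array were called at 2-fold, with Python 3.11.15 and pandas 2.3.3. The calling code was run on copies of 1 array with small added noise and genes lowered by more than 2-fold. That run checks the code only and cannot show how reliable calls from these arrays are. Precision is limited by the number of arrays. The members and gene lists were chosen with earlier results of these data known. Named genes were the members and up to 4 per pathway list by mean size of the 5FU differences. Up to 3 per marker list by range, a fixed set of signalling genes and the 8 nearest profiles without Gm-number or Rik symbols followed. Gbp2b, Gbp5, Gbp10, Gm4951, Ifit1, Ifit3, Oasl2, Zbp1, Kit, S100a8, Mmp8, Mmp9 and Ly6g were added after their values were seen. Alternatives were quantile normalization, median centring, other floors, the mean of probe sets, other fold sizes, exchanged arrays and the shared Gbp2 probe set. Protein sequences were not used here, and results on 1 withheld item are not reported here.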

Additional observations from a re-analysis of the deposited data

Results flagged for a closer look

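Among 25 family and signalling genes above the floor, 4 had 5FU differences of opposite sign in Ctrl and AMKO, each read from 1 array pair per genotype, and the difference between genotypes was not tested. Subtracting the Ctrl 5FU difference from the AMKO one gave 0.70 for Igtp (-0.50 in Ctrl and 0.20 in AMKO), 0.99 for Gbp5 (-0.91 and 0.08), 1.67 for Gm4951 (-1.22 and 0.45) and 0.11 for Jak2 (-0.01 and 0.10). Xist, which is outside the comparisons made here, had a value of 7.65 in the Ctrl day 8 array, above the floor and above the other arrays.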

How the results depend on the processing

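Counts of members at least 2-fold lower or higher and member medians were recomputed under each alternative. Quantile normalization, median centring, averaging probe sets, a higher floor (7.32, the 75th percentile), and no floor left each count of members at least 2-fold lower or higher within 1.5 times its reported value, as did counting the probe set shared by Gbp2 and Gbp2b, which was run for the 5FU comparisons only. Medians kept their sign under these but moved by over 1.5 times in 4 cases: with median centring from -0.26 to -0.15 (5FU, AMKO) and from -0.10 to -0.18 (genotype at basal), with quantile normalization from -0.10 to -0.058 (genotype at basal) and with no floor from 0.345 to 0.21 (genotype at day 8). A size of 1.5-fold gave 2 members lower after 5FU in AMKO, and 1 lower and 2 higher in AMKO than Ctrl at day 8; a size of 3-fold gave 0 lower after 5FU in Ctrl. Both follow from the size itself. With the AMKO day 8 array in place of the Ctrl day 8 array, chosen after the data were examined, 1 member was lower in Ctrl, Irgm2 turned from -0.58 to 0.04, Igtp went from -0.50 to -0.01, Gbp9 from -1.33 to -0.85, Iigp1 from -1.10 to -0.50 and Gbp4 from -1.37 to -2.07, and the member median from -0.565 to -0.325; the cause was not tested. The AMKO basal array in place of the Ctrl basal array, also chosen then, gave 2 members lower in Ctrl. Median centring turned the AMKO 5FU difference of Gbp3 from -0.08 to 0.03 and the basal genotype difference of Gbp7 from 0.01 to -0.07; quantile normalization turned no sign and moved no member difference by more than 0.16. No paired analysis was possible because each group has 1 array. Low signal limits Gbp6 in all arrays, Gbp4 in AMKO at day 8, F830016B08Rik and Gm12185 in Ctrl at day 8, and Gbp2b in all but the Ctrl basal array.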

Other observations

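Genes with and without the interferon response letters in the promoter had similar median 5FU differences. The 400 genes above the floor with the GAAA repeat in a promoter had median 5FU differences of 0.00 in Ctrl and 0.04 in AMKO, against 0.01 and 0.04 for 10622 genes with a promoter and no match. At least 2-fold lower were 4.0% of the first set in Ctrl and 3.5% in AMKO, and 4.21% and 2.97% of the second. At least 2-fold higher were 8.0% of the first set in Ctrl and 4.75% in AMKO, and 4.92% and 4.65% of the second. Of the type I interferon-induced genes listed, 9 of 15 with a promoter held the match, and of the MHC class I presentation genes 3 of 13.

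Tgtp1 and Tgtp2, near-identical Irg effectors, share 2 probe sets and could not be told apart. The first was at 7.83 and 6.50 in Ctrl and at 7.61 and 5.60 in AMKO at basal and day 8. The second was at 7.75 and 3.17 in Ctrl and at 6.84 and 5.14 in AMKO, so its day 8 values lay under the floor in both genotypes. The probe set shared by Ifi47, a further Irg gene, and Olfr56 went the other way, from 8.49 to 8.78 in Ctrl and from 7.94 to 8.78 in AMKO.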
